A study of Mus musculus with 6 samples.

Results

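Transforming growth factor beta (TGF-beta) and its intracellular messengers, the Smad proteins, were followed at the level of mRNA in hematopoietic stem cells (HSCs) that lacked the ribosomal protein Rpl22. The genes described are Smad1, Smad2, Smad3, Smad4, Smad5, Smad6, Smad7, Tgfb1, Tgfbr1 and Tgfbr2, which are 10 of the 34573 genes in the count table. They were picked by symbol for their place in the pathway, together with the known binding of Rpl22 to Smad1 mRNA, and all 10 had enough reads for a test. The libraries came from bone marrow HSCs sorted as lineage-negative, Kit+, Sca1+, CD48-, CD150+ cells. The cells were taken from Rpl22-/- mice, which carry a germline deletion in every tissue, and from Rpl22+/+ mice. Both genotypes were young adults of 8 to 12 weeks on the C57BL/6 background, and each gave 3 polyA RNA-seq libraries. Neither their sex nor the number of animals behind a library is given in the sources used here. Because the deletion is germline, HSCs and every cell around them lacked Rpl22.

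TGF-beta is secreted in a latent form and, once released, binds the type II receptor Tgfbr2, which recruits and phosphorylates the type I receptor Tgfbr1. The type I receptor then phosphorylates the receptor-regulated Smads, Smad2 and Smad3 for TGF-beta and activin, and Smad1 and Smad5 for the bone morphogenetic proteins (BMPs), and these enter the nucleus with the common partner Smad4, while Smad6 and Smad7 block the signal. In adult bone marrow TGF-beta is known to hold HSCs in quiescence. Gene-level counts measure the amount of message only, so neither the translation nor the splicing of any Smad mRNA was observed.

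The receptor-regulated Smads are switched on by phosphorylation of a Ser-Ser-X-Ser motif at the very end of the protein, and the last coding bases are shown because they part the receptor-regulated members from the rest. They were read from the GENCODE M21 transcripts (GRCm38) and end with the stop codon, and the capitals mark the last 4 codons before it.
Smad1: ccccacaatcctattTCATCCGTGTCTtaa
Smad5: ccgctgaaccccattTCTTCTGTTTCAtag
Smad3: ccgagcatccgctgtTCCAGTGTGTCTtag
Smad6: ctggagatcctactcAACAACCACAGAtag
These 30 bases lie at chr8:79339649-79339678 (reverse strand), chr13:56737449-56737478 (forward strand), chr9:63650262-63650291 (reverse strand) and chr9:63953524-63953553 (reverse strand), in the order printed. The capitals of Smad1, Smad5 and Smad3 spell Ser-Ser-X-Ser, as did the last 4 codons of Smad2. Those of the inhibitory Smad6 do not, nor did those of Smad4 and Smad7. Across the coding sequence Smad1 and Smad5 shared 77.2% of aligned bases, Smad2 and Smad3 77.1%, and Smad6 and Smad7 66.4%. No other transcript matched Smad1, Smad3, Smad4, Smad5, Smad6, Smad7, Tgfb1 or Tgfbr1 at an identity of at least 90% over at least 100 bases, and such matches covered at most 1.41% of the Smad2 and 2.27% of the Tgfbr2 transcript. No pair of the Smads met those limits.

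Counts on genes ranged from 9321123 to 13385850 per library, and the values below are counts scaled to a common library size (CPM) with edgeR's TMM factors. Rpl22 fell from 538 ± 20.7 CPM (SD, n = 3) in Rpl22+/+ HSCs to 40.1 ± 4.59 CPM (SD, n = 3) in Rpl22-/- HSCs, a log2 fold change of −3.75 (adjusted p = 2.97e-12, quasi-likelihood test in edgeR, Benjamini-Hochberg). All 11 HSC markers examined had enough reads for a test, and their summed level lay between 2637 and 2909 CPM in Rpl22-/- and between 2827 and 2875 CPM in Rpl22+/+ libraries. Of these 11, Fgd5 alone passed the test (log2 fold change −0.41, adjusted p = 0.0308). Markers of other lineages were low beside these sums except those of megakaryocytes, whose values stand with Tgfb1 below. Of 6 T cell markers, Cd3e and Trac had 0 reads in all 6 libraries and Cd3g and Cd8a at most 4 in any, whereas Foxp3 had 195 to 297 and Cd4 39 to 79 reads in each. Of 14004 genes tested across the table, 780 or 5.57% passed an adjusted p of 0.05, with 3.28% higher and 2.29% lower in Rpl22-/- HSCs.

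Among the 10 genes, the ligand Tgfb1 rose in Rpl22-/- HSCs and no other gene passed the test, so that 1 of 10 was called beside the 5.57% of all genes. At an unadjusted p of 0.05, 5 of 10 passed, namely Tgfb1, Tgfbr1, Tgfbr2, Smad4 and Smad5, beside 22.3% of all genes. In 6 of 10 the ranges of the 2 genotypes were apart, with Rpl22-/- above in Tgfb1 and Tgfbr2 and below in Tgfbr1, Smad3, Smad4 and Smad5, against 26.9% of all genes. With 3 libraries against 3, an exact two-sided permutation test of a single gene cannot go below 0.1, which is the value for each of these 6. The median log2 fold change was −0.09 over the 10 genes and −0.0068 over all genes tested. In these bulk libraries, fewer cells of a kind and less RNA per cell cannot be told apart.

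**Figure D1:**
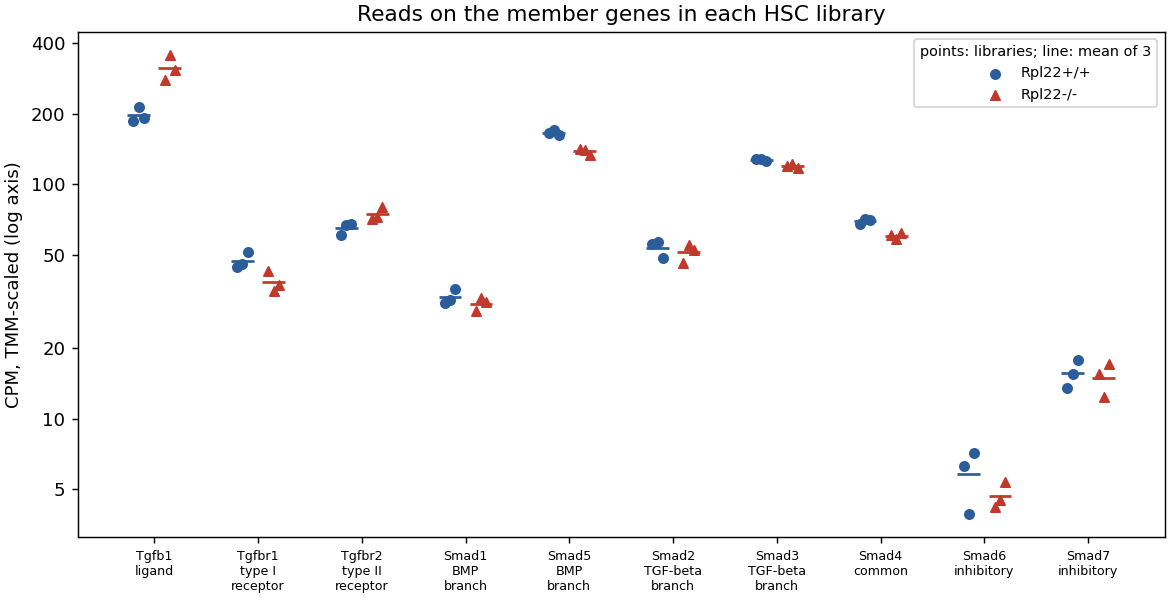
CPM of each of the 10 genes on a log axis, with blue circles for the 3 Rpl22+/+ libraries, red triangles for the 3 Rpl22-/- libraries and a line at each mean. Tgfb1 is the gene whose groups stand furthest apart, from 187 to 215 CPM in Rpl22+/+ and from 278 to 356 CPM in Rpl22-/- libraries, while the symbols of Smad1, Smad2, Smad6 and Smad7 interleave.

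Tgfb1 encodes TGF-beta 1, the founding ligand of the family, and lies on the forward strand at chr7:25687002-25705077 (GRCm38). Its level was 278, 356 and 309 CPM in Rpl22-/- replicates 1, 2 and 3 and 187, 215 and 192 CPM in Rpl22+/+ replicates 1, 2 and 3. Every Rpl22-/- library stood above every Rpl22+/+ library. The gap between the genotypes was wider than the whole spread within Rpl22+/+ but narrower than that within Rpl22-/-. The means were 315 ± 39.1 and 198 ± 14.8 CPM (SD, n = 3 each), a 1.59-fold ratio. The log2 fold change was 0.67 (standard error 0.10, 95% interval 0.46 to 0.88), and the quasi-likelihood test in edgeR gave an adjusted p of 0.00254 (Benjamini-Hochberg). By p it ranked 33 of 14004 genes. Across 15 other ways of processing the counts the log2 fold change ran from 0.57 to 0.75 and the adjusted p from 7.59e-10 to 0.0248. The rise thus passed the threshold under each of those 15.

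The bases before the Tgfb1 start site are shown because it is the gene of the set whose message rose, and the capitals mark the GC box (GGGCGG, or CCGCCC on the other strand), a short motif to which Sp1 and related factors bind.
Tgfb1: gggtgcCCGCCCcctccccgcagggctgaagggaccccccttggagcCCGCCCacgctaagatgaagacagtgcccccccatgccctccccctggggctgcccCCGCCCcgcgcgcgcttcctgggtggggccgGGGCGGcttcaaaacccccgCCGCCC
These 160 bases lie at chr7:25686832-25686991 on the forward strand of GRCm38.p6 and run from position −170 to −11 before the start site of the RefSeq promoter table. They hold 5 matches, at −164, −123, −67, −36 and −16. The table's full window, which runs on past the start site and in which 77% of the bases were G or C, held 6 matches, and 35.7% of 32851 promoter windows of the same length held at least 1. No match to the AP-1 site (TGACTCA or TGAGTCA), the short Smad-binding element (CAGAC or GTCTG), the CCAAT box (CCAAT or ATTGG) or the TATA box (TATAAA or TTTATA) was in the window. Those motifs were in 5.2%, 49.6%, 37.4% and 13.6% of all windows. GC boxes were also in windows of members that were not called. There were up to 7 in a window of Smad5, 4 in Smad6, up to 2 in Tgfbr1, 2 in Smad3, 1 in Smad1 and 0 in Tgfbr2. The part of the motif in the Tgfb1 difference was not tested.

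Megakaryocytes and platelets are rich in TGF-beta 1, and their markers moved with genotype in the same libraries. Of 7 megakaryocyte markers, 6 rose in Rpl22-/- HSCs, beside 3.28% of all genes. Among them were Gp5 (log2 fold change 0.77, adjusted p = 0.00237), Treml1 (0.79, adjusted p = 0.00441) and Itga2b (0.51, adjusted p = 0.0115), all by the same edgeR test. The summed level of the 7 markers was 1022, 967 and 856 CPM in Rpl22-/- replicates 1, 2 and 3 and 600, 739 and 559 CPM in Rpl22+/+ replicates 1, 2 and 3. The genotypes did not overlap in that sum, and the Rpl22-/- library with the highest sum, replicate 1, had the lowest Tgfb1 of its genotype, while Rpl22+/+ replicate 2 had the highest of both in its genotype. The part of these cells in the Tgfb1 difference was not tested. Summed markers of neutrophils and monocytes were 161 CPM in Rpl22-/- replicate 2, the library with the highest Tgfb1, and between 19.0 and 46.5 CPM in the other 5. Of 7 such markers tested, Ctsg rose (log2 fold change 2.85, edgeR adjusted p = 0.0282) and had all Rpl22-/- libraries above, though DESeq2 and limma-voom called 0 of the 7. Ctsg had 28, 163 and 48 reads in Rpl22-/- and 1, 10 and 19 reads in Rpl22+/+ libraries. For Ctsg and Elane, every library of a genotype reached the minimum count in Rpl22-/- alone, the group where they are high. Mpo and Elane had log2 fold changes of 2.32 and 2.24 (edgeR adjusted p = 0.0642 and 0.0970), and their libraries overlapped because Rpl22+/+ replicate 3 stood above Rpl22-/- replicates 1 and 3. Without Rpl22-/- replicate 2 the Tgfb1 log2 fold change was 0.57 and the adjusted p 0.00615. Erythroid marker sums lay between 31.1 and 36.8 CPM in Rpl22-/- and 32.8 and 42.1 CPM in Rpl22+/+ libraries, and within them Car1 fell (log2 fold change −1.37, edgeR adjusted p = 0.0246). Car1 groups overlapped, at 4.13, 2.66 and 5.09 CPM in Rpl22-/- and 12.8, 13.0 and 4.68 CPM in Rpl22+/+ libraries. Of the 4 erythroid markers tested, DESeq2 called 1 and limma-voom 0. B cell marker sums did not overlap, at 27.1 to 29.6 and 23.2 to 25.2 CPM, most of it from Cd79b. T cell sums were 24.7 to 28.3 and 25.7 to 27.3 CPM, and stromal and endothelial sums 79.2 to 86.7 and 61.1 to 80.3 CPM. The part of these cells in any result was not tested.

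**Figure D2:**
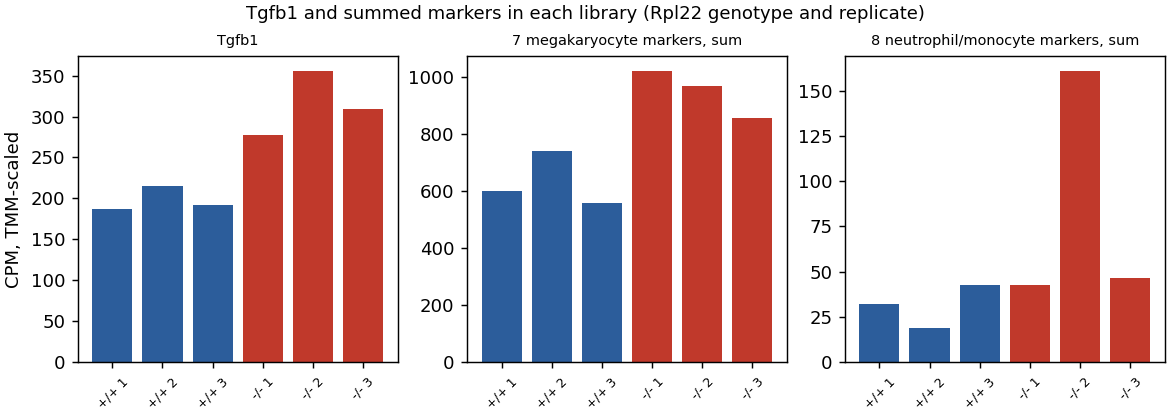
TMM-scaled CPM in each of the 6 libraries for Tgfb1, for the sum of 7 megakaryocyte markers and for the sum of 8 neutrophil and monocyte markers, with blue bars for Rpl22+/+ and red bars for Rpl22-/- and each vertical axis starting at 0. Tgfb1 and the megakaryocyte sum are higher in all 3 Rpl22-/- libraries, while the third panel is led by Rpl22-/- replicate 2 at 161 CPM.

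The receptor chains did not share a direction. Tgfbr2, the ligand-binding type II receptor, lies on the reverse strand at chr9:116084293-116175360. It was at 71.4, 72.9 and 80.5 CPM in Rpl22-/- and 61.1, 67.3 and 67.5 CPM in Rpl22+/+ libraries, so that the groups did not overlap and Rpl22-/- was above. Means were 74.9 ± 4.89 and 65.3 ± 3.61 CPM (SD, n = 3 each), with a log2 fold change of 0.20 (95% interval 0.01 to 0.39) and an edgeR adjusted p of 0.199. Tgfbr1, the type I receptor kinase that acts on Smad2 and Smad3, lies on the forward strand at chr4:47353222-47414931. Its level was 42.9, 35.0 and 37.1 CPM in Rpl22-/- replicates 1, 2 and 3 and 44.3, 46.0 and 51.5 CPM in Rpl22+/+ replicates 1, 2 and 3. All Rpl22-/- libraries were below, with replicate 1 closest to the Rpl22+/+ range. Its means of 38.4 ± 4.05 and 47.3 ± 3.76 CPM (SD, n = 3 each) gave a log2 fold change of −0.30 (95% interval −0.53 to −0.07, edgeR adjusted p = 0.114). Without Rpl22-/- replicate 1 it was −0.38 with an edgeR adjusted p of 0.0352, in a fit that called 12.1% of all genes tested. In the other 14 of 15 ways of processing, Tgfbr1 did not pass, at adjusted p up to 0.324 (edgeR without Rpl22+/+ replicate 3).

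Set against each other per kilobase of mRNA, the receptors were closer to equal shares in Rpl22+/+ HSCs. Tgfbr1 was 43.4, 38.0 and 37.1% of the summed length-scaled level of Tgfbr1 and Tgfbr2 in Rpl22-/- replicates 1, 2 and 3. It was 48.1, 46.6 and 49.3% in the Rpl22+/+ replicates, and the groups did not overlap. The means were 39.5 ± 3.41% and 48.0 ± 1.36% (SD, n = 3 each), without a test beyond those of the separate genes, since this share was formed with their values known.

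Among the receptor-regulated Smads of the BMP branch, Smad5 was the member closest to the threshold and Smad1 differed little. Smad5 lies on the forward strand at chr13:56703010-56742377 and was at 141, 140 and 134 CPM in Rpl22-/- and 165, 170 and 162 CPM in Rpl22+/+ libraries. All 3 Rpl22-/- libraries were below, and the gap between the genotypes exceeded the spread within either. The means were 138 ± 3.87 and 166 ± 4.24 CPM (SD, n = 3 each), with a log2 fold change of −0.26 (standard error 0.0790, 95% interval −0.43 to −0.09, edgeR adjusted p = 0.0637). It passed an adjusted p of 0.05 in DESeq2 (0.0407), with library size as the only scaling (0.0344) and without Rpl22-/- replicate 1 (0.0490). In the other 12 of 15 ways of processing, Smad5 did not pass, at adjusted p up to 0.215 (edgeR without Rpl22+/+ replicate 2). A misc_RNA of 100 bases, Gm27301, overlaps 1.35% of the Smad5 exons on the same strand and has no row in the table.

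Smad1, whose message Rpl22 is known to bind, lies on the reverse strand at chr8:79338395-79399518. Its level was 28.8, 32.9 and 31.4 CPM in Rpl22-/- and 31.3, 32.3 and 35.9 CPM in Rpl22+/+ libraries. The groups overlapped, with means of 31.0 ± 2.08 and 33.2 ± 2.41 CPM (SD, n = 3 each). The log2 fold change was −0.10 (standard error 0.112, edgeR adjusted p = 0.670), and its 95% interval of −0.33 to 0.14 bounds what these libraries allow in either direction. Of the third BMP-branch Smad, Smad9, there were 2 reads in 1 Rpl22+/+ library and 0 in the other 5.

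The Smads of the TGF-beta branch had smaller fold changes than Smad5. Smad3 lies on the reverse strand at chr9:63646767-63757994 and was at 120, 122 and 117 CPM in Rpl22-/- against 129, 128 and 126 CPM in Rpl22+/+ libraries. The groups did not overlap, yet the gap was small, with means of 119 ± 2.56 and 127 ± 1.28 CPM (SD, n = 3 each) and a log2 fold change of −0.09 (edgeR adjusted p = 0.516).

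Smad2 lies on the forward strand at chr18:76241580-76310963 and was at 46.2, 55.3 and 52.3 CPM in Rpl22-/- and 55.9, 57.1 and 48.5 CPM in Rpl22+/+ libraries. The groups overlapped, since Rpl22+/+ replicate 3 fell among the Rpl22-/- values. Means were 51.3 ± 4.64 and 53.8 ± 4.66 CPM (SD, n = 3 each), with a log2 fold change of −0.07 (standard error 0.102, edgeR adjusted p = 0.729). Without Rpl22-/- replicate 1 the log2 fold change was 0.0009.

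Smad4, the partner of both branches, lies on the reverse strand at chr18:73639009-73703780. It stood at 60.6, 58.7 and 62.1 CPM in Rpl22-/- and 67.9, 71.4 and 70.3 CPM in Rpl22+/+ libraries. Replicates were tight and the groups did not overlap, with means of 60.4 ± 1.70 and 69.9 ± 1.81 CPM (SD, n = 3 each). The log2 fold change was −0.21 (standard error 0.0837, 95% interval −0.39 to −0.03), and the edgeR adjusted p of 0.152 did not pass the threshold.

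The inhibitory Smads carried the fewest reads. Smad7, which competes for the type I receptor and brings ubiquitin ligases to it, was at 15.5, 12.4 and 17.1 CPM in Rpl22-/- and 13.5, 15.5 and 17.9 CPM in Rpl22+/+ libraries. The values interleaved, the log2 fold change was −0.05 (standard error 0.161, edgeR adjusted p = 0.888), and its sign turned to 0.07 without Rpl22-/- replicate 2 and to 0.05 without Rpl22+/+ replicate 3. Smad6, which acts mainly on the BMP branch, had 54, 54 and 71 reads in Rpl22-/- and 82, 49 and 69 reads in Rpl22+/+ libraries. At that depth the log2 fold change of −0.29 had a standard error of 0.253 (edgeR adjusted p = 0.535), so a change of its size was not detectable. Smad7 lies on the forward strand at chr18:75367529-75395935 and Smad6 on the reverse strand at chr9:63953076-64022059.

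**Figure D3:**
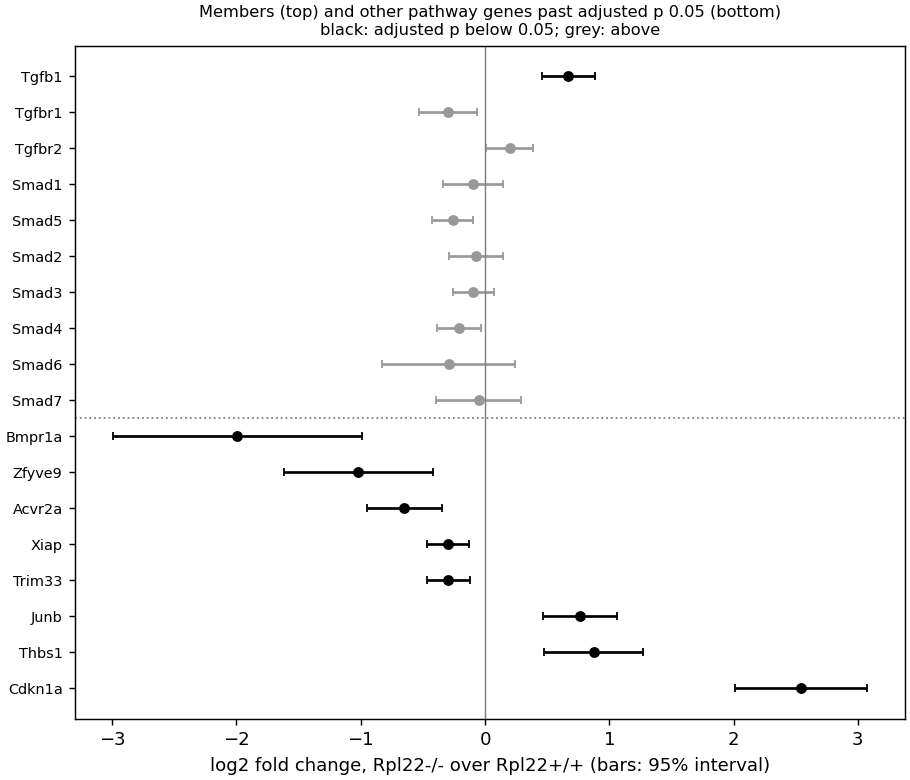
log2 fold change of Rpl22-/- over Rpl22+/+ HSCs with its 95% interval for the 10 genes (above the dotted line) and for the 8 other pathway genes past an adjusted p of 0.05 (below it), in black where the adjusted p is below 0.05 and in grey otherwise. Tgfb1 at 0.67 is the only black symbol above the line, and Cdkn1a at 2.54 and Bmpr1a, on few reads, at −1.99 are the extremes below it.

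Taken as a family, 7 of 7 Smads with a test had a lower fitted level in Rpl22-/- HSCs. Of all 14004 genes tested, 7178 were lower too. None of the 7 Smads passed an adjusted p of 0.05 in edgeR. The confidence intervals of Smad1, Smad2, Smad3, Smad6 and Smad7 ran from negative to positive values, so their directions were not settled. In edgeR 2 of the 7 (Smad4 and Smad5) had an unadjusted p below 0.05, DESeq2 called 1 (Smad5) and limma-voom called 0, tools that called 7.54% and 5.30% of all genes. The direction of Smad2 and Smad7 turned in the fits named above, and the signs of the other 5 did not change in any of the 15 alternatives. Summed over Smad1 to Smad7 the level was 416, 426 and 419 CPM in Rpl22-/- and 469, 478 and 468 CPM in Rpl22+/+ libraries. These sums did not overlap, with means of 420 ± 5.23 and 472 ± 5.75 CPM (SD, n = 3 each), beside 26.9% of all single genes whose groups did not. Smad5 and Smad3, given singly above, made up most of these sums, and the sums were not tested. Per kilobase of mRNA, Smad1 and Smad5 were 33.0 ± 0.739% of the 7 Smads in Rpl22-/- and 34.4 ± 0.223% in Rpl22+/+ HSCs, Smad2 and Smad3 were 38.4 ± 0.884% and 36.4 ± 1.02%, and the inhibitory Smad6 and Smad7 were 6.54 ± 0.903% and 6.43 ± 1.01% (SD, n = 3 each).

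Fold changes also varied with transcript length. The median log2 fold change of all genes with a known length was 0.09 in the shortest of 5 equal groups by exon length and −0.07 in the longest. Smad1, Smad2, Smad3, Smad5, Tgfbr1 and Tgfbr2 lie at or above the 65.4th percentile of length, while Smad7 lies at 54.0, Smad4 at 42.9 and Smad6 at 35.3. Tgfbr2, among the longest at 84.2, had a positive log2 fold change, and the shorter Smad4, Smad6 and Smad7 had negative values. With that trend removed, Smad1 stood at −0.06, Smad2 at −0.0081, Smad3 at −0.06, Smad5 at −0.21 (edgeR adjusted p = 0.138) and Tgfbr1 at −0.26, each nearer to 0 than before, as was Smad7 at −0.04. Smad4 at −0.21, Smad6 at −0.32, Tgfbr2 at 0.26 and Tgfb1 at 0.69 were not nearer to 0.

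**Figure D4:**
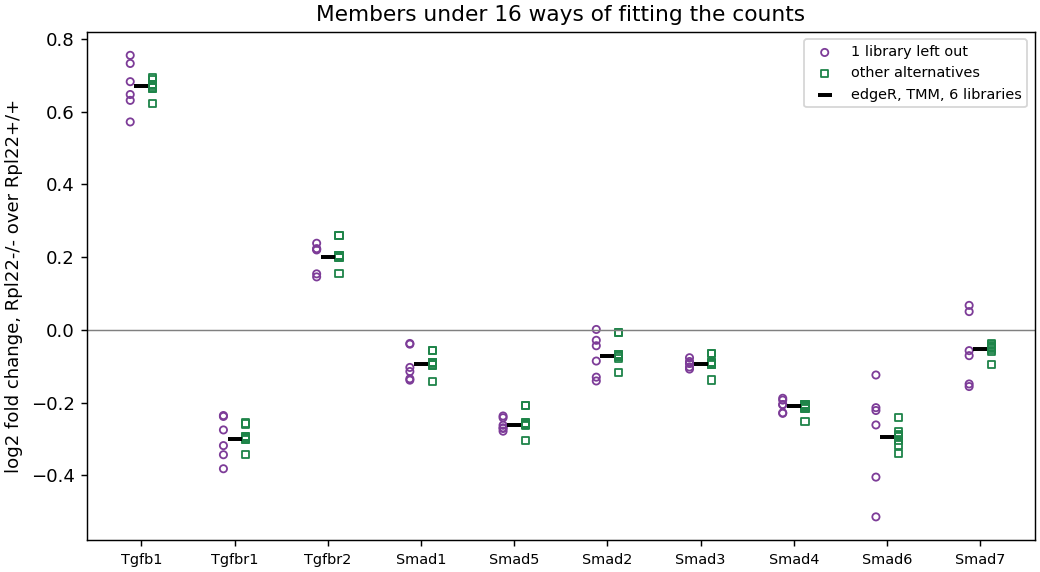
log2 fold change of each of the 10 genes under 16 ways of fitting the counts, with a black bar for edgeR with TMM on all 6 libraries, circles for fits without 1 library and squares for the other alternatives. All symbols of Tgfb1 lie between 0.57 and 0.75, those of Smad2 and Smad7 fall on both sides of 0, and those of the other 7 genes keep to 1 side.

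Ordered by level per kilobase of mRNA, Tgfb1 led in both genotypes. In Rpl22+/+ HSCs it was at 90.9 ± 6.79 CPM per kb (SD, n = 3), followed by Smad3 at 25.0, Smad5 at 23.1 and Smad4 at 19.5 CPM per kb, and the ranges of these 4 genes over the libraries did not meet. Tgfbr2 at 7.98, Tgfbr1 at 7.37, Smad1 at 6.41 and Smad2 at 6.26 CPM per kb came next, and each overlapped its neighbour in that order. Smad7 at 3.57 and Smad6 at 1.95 CPM per kb were the lowest. In Rpl22-/- HSCs Tgfb1 had a mean of 145 CPM per kb and a range of 128 to 164, and the receptors no longer overlapped, with Tgfbr2 between 8.72 and 9.84 and Tgfbr1 between 5.46 and 6.68 CPM per kb. With the union of all exons in place of mRNA length, Tgfb1 was at 39.2 and 62.4 CPM per kb in Rpl22+/+ and Rpl22-/- HSCs and still led, while Smad2 then stood above Smad1 in both genotypes and Tgfbr1 above Smad1 in Rpl22-/- HSCs too. Tgfb1 was 99.4% of the length-scaled level of Tgfb1, Tgfb2 and Tgfb3 in Rpl22+/+ and 99.6% in Rpl22-/- HSCs.

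**Figure D5:**
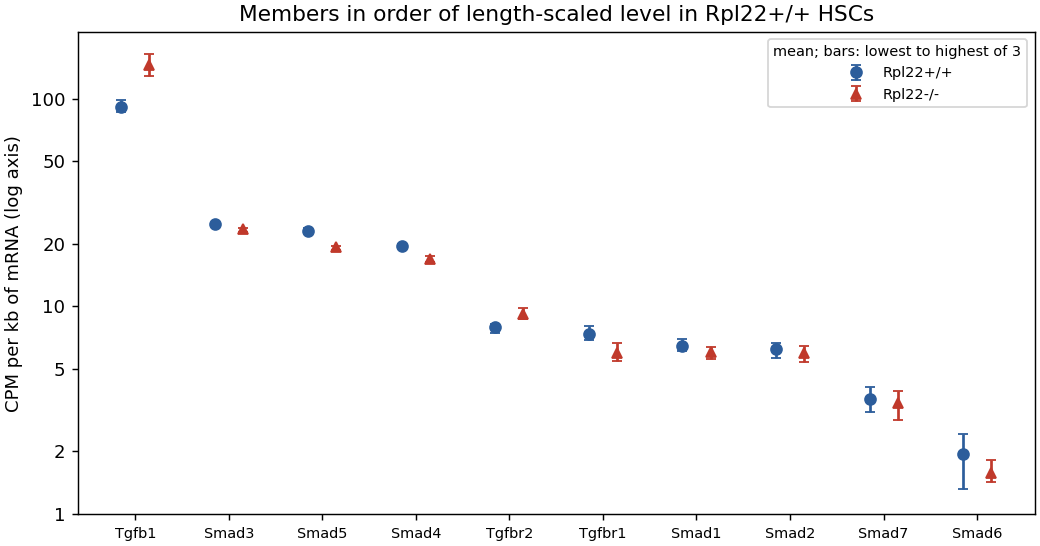
Level of the 10 genes in CPM per kb of mRNA on a log axis, in the order of their Rpl22+/+ means, with blue circles (Rpl22+/+) and red triangles (Rpl22-/-) at the mean and bars from the lowest to the highest of 3 libraries. Tgfb1 stands far above Smad3, Smad5 and Smad4, the receptors and Smad1 and Smad2 lie between 5 and 10 CPM per kb, and Smad6 is lowest.

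Beyond the 10 genes, 93 other genes of the pathway were examined by role, of which 73 had enough reads for a test. Of the 73, 3 rose and 5 fell in Rpl22-/- HSCs by edgeR's quasi-likelihood test, beside 3.28% and 2.29% of all genes, and the median log2 fold change of the 73 was −0.06. The 5 include Bmpr1a, kept for the test only through the group where it is high. With 10 counts asked of every library, 3 rose and 4 fell. Among the ligands, 0 of the 5 others tested passed, with 2 at an unadjusted p below 0.05 and 0 called by DESeq2 or limma-voom. The smallest p in that group belonged to Bmp1 (log2 fold change −0.30, edgeR adjusted p = 0.129), which despite its name is a protease that cleaves procollagens. Among the proteins that store or release latent TGF-beta, 1 of 8 tested passed. This was Thbs1, thrombospondin 1, which can free TGF-beta from its latent complex and is also abundant in platelets, at 14.7, 14.5 and 18.5 CPM in Rpl22-/- and 11.1, 7.46 and 7.28 CPM in Rpl22+/+ libraries. All Rpl22-/- libraries were above, with a log2 fold change of 0.87 (edgeR adjusted p = 0.0157). The part of megakaryocytes in it was not tested.

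Of 8 other receptors tested, 2 fell and 0 rose, beside 2.29% and 3.28% of all genes. Acvr2a, an activin type II receptor, was at 18.2, 16.4 and 13.1 CPM in Rpl22-/- and 25.0, 23.8 and 26 CPM in Rpl22+/+ libraries. The groups did not overlap, and the log2 fold change was −0.65 (edgeR adjusted p = 0.0175). Bmpr1a, a BMP type I receptor, had 5, 5 and 9 reads in Rpl22-/- and 38, 21 and 13 reads in Rpl22+/+ libraries. All Rpl22-/- libraries were below, on few reads, with a log2 fold change of −1.99 (95% interval −2.99 to −0.99, edgeR adjusted p = 0.0243) and no adjusted p from DESeq2. Only the Rpl22+/+ libraries reached the minimum count of 10, so Bmpr1a was kept for the test through the group where it is high. With 10 counts asked of every library it was not tested.

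Of 15 other negative regulators tested, 1 fell and 0 rose, beside 2.29% and 3.28% of all genes. This was Trim33, a ubiquitin ligase that acts on Smad4, at 106 ± 3.37 against 130 ± 5.25 CPM (SD, n = 3 each). Its log2 fold change was −0.30 (edgeR adjusted p = 0.0437). Of 11 positive regulators, 1 fell, beside 2.29% of all genes, namely Zfyve9, also called SARA, which holds Smad2 and Smad3 near the receptor. It was at 3.59, 2.83 and 1.75 CPM in Rpl22-/- and 5.38, 5.94 and 5.20 CPM in Rpl22+/+ libraries, a log2 fold change of −1.02 (edgeR adjusted p = 0.0457). Of 12 genes of the branch that does not run through Smads, 1 fell, again beside 2.29% of all genes. This was Xiap, an inhibitor of apoptosis that also links receptors to the kinase Map3k7. Xiap was at 125 ± 3.63 against 153 ± 3.48 CPM (SD, n = 3 each), a log2 fold change of −0.30 (edgeR adjusted p = 0.0394). These 3 genes did not overlap between genotypes, with Rpl22-/- below, beside 26.9% of all genes without overlap in either direction. They were named for passing the test, so groups that lie apart add no separate support. The same holds for Thbs1, Acvr2a and Bmpr1a.

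Of 20 genes known as targets of the pathway in various cells, other than Smad6 and Smad7, 2 rose and 0 fell. All genes stood at 3.28% and 2.29%. Cdkn1a, which encodes the cell cycle inhibitor p21, was at 9.43, 15.5 and 13.3 CPM in Rpl22-/- and 2.30, 1.69 and 2.60 CPM in Rpl22+/+ libraries, a log2 fold change of 2.54 (edgeR adjusted p = 7.56e-05). Junb was at 24.4, 30.8 and 27.9 CPM in Rpl22-/- and 14.4, 18.3 and 16.2 CPM in Rpl22+/+ libraries, a log2 fold change of 0.76 (edgeR adjusted p = 0.00764). For both genes all Rpl22-/- libraries were above, which adds no separate support since they were named for passing the test. Cdkn1a is also a target of p53, and Junb an immediate early gene, so neither is specific to TGF-beta. The remaining 18 tested did not pass. At an unadjusted p of 0.05 in edgeR, 5 of the 20 passed, beside 22.3% of all genes. With Smad6 and Smad7 counted, 14 of 22 targets had a lower fitted level in Rpl22-/- HSCs and 8 a higher one. Their median log2 fold change was −0.07, so the targets did not share the direction of Cdkn1a and Junb.

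Cdkn1a and Junb passed the threshold under all 15 alternatives, and the other 6 of these 8 genes kept their sign but not their call. Thbs1 lost it without Rpl22-/- replicate 3 (adjusted p = 0.0920 in edgeR), Rpl22+/+ replicate 2 or Rpl22+/+ replicate 3. Acvr2a lost it without Rpl22-/- replicate 3 (0.0869), Rpl22+/+ replicate 1 or Rpl22+/+ replicate 3. Bmpr1a lost it without Rpl22-/- replicate 2, Rpl22-/- replicate 3, Rpl22+/+ replicate 1 (0.167) or Rpl22+/+ replicate 2. It had no adjusted p in DESeq2 and was not tested with 10 counts asked of every library. Xiap and Zfyve9 lost it without any 1 library other than Rpl22-/- replicate 1 and with the length trend removed, at adjusted p up to 0.162 and 0.150. Trim33 lost it without any 1 library, with the length trend removed and with a block for replicate number, at adjusted p up to 0.203.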

How the data were processed

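RNA from sorted HSCs of 3 Rpl22-/- and 3 Rpl22+/+ samples was sequenced, each as its own library. The authors checked reads with FastQC, aligned them to mm10 with TopHat2 (version 2.1.1 in the submitters' processing notes) and deposited raw HTSeq counts per gene. The strand setting and annotation are not given in the sources used here. The 5 lines of unassigned reads, 58.6% to 60.9% of each library, were left out. Nothing states that libraries came from separate animals, so p-values measure the spread between these samples, which may be technical.

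Genes were kept by filterByExpr (minimum count 10) of edgeR 4.0.16 in R 4.3.3, which left 14004. They were scaled by TMM and compared between genotypes by the two-sided quasi-likelihood test, and p-values were adjusted over these genes by the method of Benjamini and Hochberg. CPM uses the TMM-scaled library size, and CPM per kb the joined exons of the gene's basic protein-coding transcripts. The members and lists were chosen with earlier results of these data known. Named genes are the 10 members, Rpl22, every other pathway gene with an adjusted p below 0.05 and, in a list without one, the gene of smallest p. The markers named were chosen after their values were seen.

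Alternatives were DESeq2 1.42.0, voom in limma 3.58.1, scaling by relative log expression or by library size alone, a low-count filter loosened to 1 count in some library or tightened to 10 counts in all, each of 6 libraries left out, a block for replicate number, and removal of the trend on gene length (lowess, span 0.3) without and with that block. The tests were first tested on simulated counts with known changes. Symbols matched GENCODE M21 (GRCm38) directly for 29042 of 34573 genes and through an older symbol for 1849, and 3682 had no match. Sequences came from RefSeq promoters (GRCm38.p6) and GENCODE transcripts, aligned with BLAST 2.17.0 and Biopython 1.88. Python 3.11.15, pandas 2.3.3, numpy 2.4.6 and matplotlib 3.10.9 were used.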

Additional observations from a re-analysis of the deposited data

How the results depend on the processing

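Tgfb1 kept its direction and its call under all 15 alternatives. Of the 10 members, 8 kept their sign in every alternative, and the exceptions were Smad2, from −0.14 to 0.0009 with 1 library left out (0.0009 without Rpl22-/- replicate 1), and Smad7, from −0.16 to 0.067 (0.067 without Rpl22-/- replicate 2 and 0.05 without Rpl22+/+ replicate 3). The number of members called, 1 with edgeR and TMM, was 2 with library size alone and 2 in DESeq2, where Smad5 joined Tgfb1, and ranged from 1 to 3 when 1 library was left out, the highest without Rpl22-/- replicate 1, the fit that also called the most genes in all (12.1% of those tested). Other pathway genes called higher numbered 3, and 2 to 5 with 1 library left out. Those called lower numbered 5, and 0 to 8 with 1 library left out, 2 with the length trend removed and 3 with the length trend removed and the replicate block. Over all genes, 780 were called, 1422 without the low-count filter and 127 to 1720 with 1 library left out, the lowest without Rpl22-/- replicate 3 and the highest without Rpl22-/- replicate 1. The cause of these moves was not tested. Of the genes called, 58.8% were higher with TMM and 43.4% with library size alone. Correlations of the deviations of same-numbered libraries were −0.103, 0.0549 and 0.0448, and those of other pairs ran from −0.171 to 0.132. With so few libraries, these values cannot settle whether the replicate numbers pair them. With the replicate block 904 genes and 1 member were called. With 3 libraries per genotype, precision rests on their spread, and Smad6 and Bmpr1a on few reads.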
